A study of Mus musculus with 2 samples.

Results

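The 36 cell cycle genes described here are 10 S-phase genes and 26 mitotic genes, taken from a fixed list by symbol. All 36 of 36 were present among the 33696 features of both deposited matrices. They were measured by droplet-based single-cell RNA sequencing of mouse aorta (10x 3' v3.1 chemistry) in 1 wild-type (WT) library and 1 library titled Kif13b-/-, which lacks or lowers the kinesin motor gene Kif13b. The genotype label of the second library instead reads knock down. No label gives the strain, age, sex or diet of the mice, or how many were used for each library. The series title concerns macrophage KIF13B, MERTK and the engulfment of dying cells in atherosclerosis, and no label states a question about the cell cycle. Each genotype is represented by a single library, so genotype and library cannot be told apart, nothing was tested between animals, and every 95% interval covers counting error only.

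A dividing cell first copies its DNA in S phase and then separates the copies in mitosis. S-phase genes load and run the replication machinery and supply nucleotides, and many of them are also used in DNA repair, so that resting cells keep some of their transcripts. Mitotic genes encode the cyclins, kinases, kinetochore proteins, spindle proteins and ubiquitin enzymes that drive chromosome separation. Their transcripts are made late in the cycle and are nearly absent from resting cells, which makes them markers of cells in division. In the adult aorta few cells divide at any time, among them macrophages of the inflamed wall.

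The WT library held 21126 barcodes and the Kif13b-/- library 7766, against about 6000 cells loaded for each. Numbers below are therefore numbers of barcodes, several of which may come from the same cell or from fragments. After filters, 16686 and 6887 barcodes remained with medians of 2385 and 5760 UMIs (unique molecular identifiers, each 1 captured transcript), and 38 barcode sequences were common to both. They fell into 39 clusters, grouped into classes by marker genes. All cell cycle genes used here had been kept out of the genes that shaped the clusters. Marker levels within and outside a class were 7072 and 185 CPM (the UMIs of a gene scaled to the total UMIs of the class and library) for macrophage-like and 3810 and 153 CPM for endothelial-like WT barcodes. They were 2149 and 12.8 CPM for T cell-like WT barcodes, whereas fibroblast markers stood at 20321 CPM inside and 11007 CPM outside the class, since other stromal clusters share them. None of the markers of these 4 classes was at 0 in either library. Kif13b itself stood at 70.5 CPM in the WT and 43.8 CPM in the Kif13b-/- library. The assay reads transcript 3' ends and the altered part of the gene is not stated, so these levels do not check the label.

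Members differed widely in how far their transcripts were held by a few barcodes. A barcode was called cycling when it held at least 3 UMIs on 24 mitotic members after being thinned to 1000 UMIs, a step that gives every barcode the same depth. The call leaves out Stmn1, a microtubule-destabilising protein, and Hmgb2, a chromatin protein. It marked 269 of 14228 WT and 41 of 6457 Kif13b-/- barcodes. The call rests on the mitotic members, so their own shares are a description of it.

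In the WT library the cycling barcodes held 2.30% of all UMIs, counted for genes outside the call, but 73.5% (70.5 to 76.4%) of the UMIs of Cenpf, a large kinetochore protein. They also held 69.9% of those of Ube2c, the ubiquitin-conjugating enzyme of the anaphase-promoting complex, 69.1% for the mitotic kinase gene Plk1 and 66.8% for the cyclin gene Ccnb1. For each mitotic member the share was taken with cycling called from the other members. At the other end among mitotic members stood Hmgb2, at 17.3%, and Cenpa, the centromeric histone, at 33.3%. Stmn1, which the call leaves out like Hmgb2, was at 43.6%, above Cenpa, which the call uses.

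The S-phase members, which the call did not use, split in a similar way. Pclaf, a protein bound to the replication clamp, had 50.2% (46.9 to 53.5%) of its UMIs in WT cycling barcodes, with Tk1 (thymidine kinase) at 42.0% and Rrm2 (the regulated subunit of ribonucleotide reductase) at 41.7%. By contrast Pcna, the replication clamp itself, had 6.25% (5.73 to 6.81%) there and the replicative helicase subunit Mcm6 had 7.36%. In the Kif13b-/- library the cycling barcodes held less of all UMIs, 1.43%. Pclaf was at 31.2% there, Rrm2 at 28.4%, Tk1 at 26.6%, Mcm6 at 6.38% and Pcna at 4.31%. Most Pcna UMIs in both libraries thus lay outside cycling barcodes. Divided by the share of all UMIs, the Kif13b-/- values were not below the WT ones. Pclaf was at 21.8 in both libraries. WT and Kif13b-/- values were 18.2 and 19.9 for Rrm2, 18.3 and 18.6 for Tk1, 3.20 and 4.46 for Mcm6, and 2.72 and 3.02 for Pcna.

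**Figure D1:**
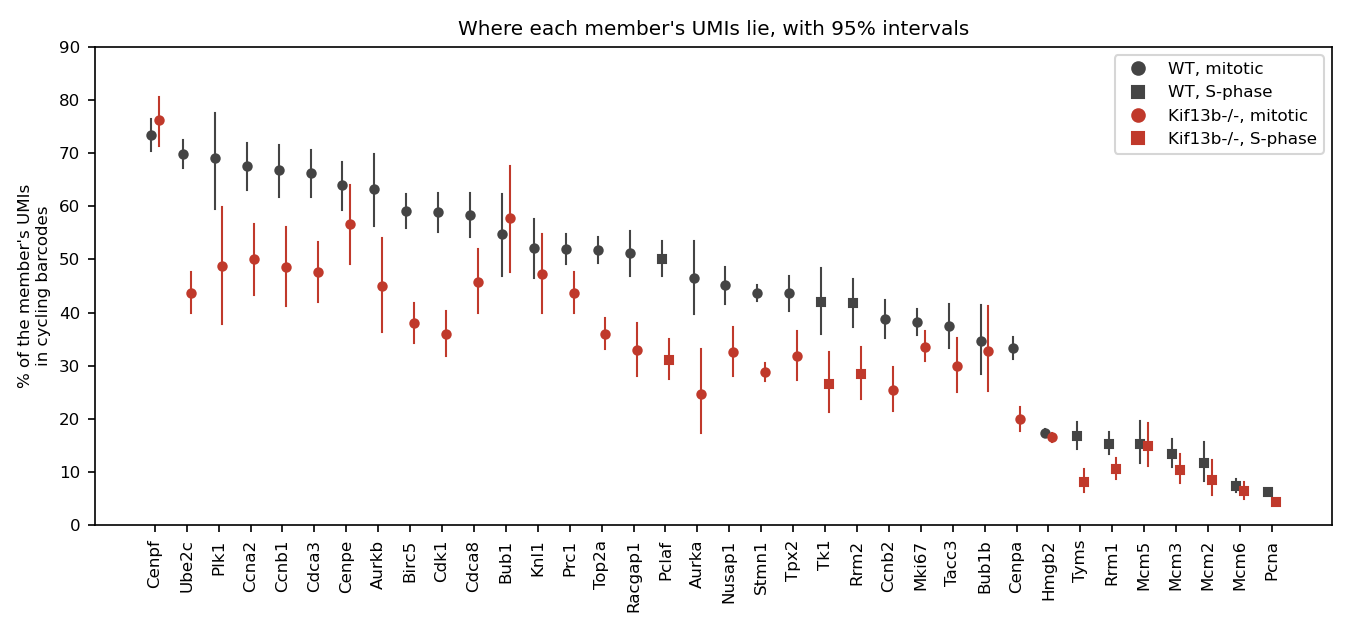
Percent of each member's UMIs that lie in cycling barcodes, by library, with 95% Clopper-Pearson intervals; circles are mitotic and squares S-phase members, and a mitotic member is left out of its own call. Cenpf, at 73.5% in the WT library, stands at the left end and Pcna, at 6.25%, at the right end.

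The promoters of these genes carry sequence features that the list did not use. RefSeq start-site windows of 300 bases (250 before and 50 after the start, GRCm38.p6) were found for 32 of 36 members. They were searched on both strands for 3 kinds of exact match: the cell cycle genes homology region, or CHR (TTTGAA or TTCGAA), the CCAAT box (CCAAT), and an E2F-type site (TTTGGCGC, TTTCCCGC, TTTGCCGC or TTTCGCGC). As background, the CHR is the element through which the DREAM and MuvB complexes act on late cell cycle genes, NF-Y binds the CCAAT box, and E2F factors act on genes of the G1/S transition. The 150 bases before the start are shown for 4 mitotic members whose windows hold a CHR and for 2 S-phase members, 1 with E2F-type sites and 1 without, with all matches in capitals, read 5′ to 3′ on the gene's strand.
Cdk1 (minus strand, chr10:69352913-69353062): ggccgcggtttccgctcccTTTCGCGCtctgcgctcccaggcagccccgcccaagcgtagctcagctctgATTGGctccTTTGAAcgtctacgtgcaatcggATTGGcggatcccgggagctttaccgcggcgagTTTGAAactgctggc
Top2a (minus strand, chr11:99024190-99024339): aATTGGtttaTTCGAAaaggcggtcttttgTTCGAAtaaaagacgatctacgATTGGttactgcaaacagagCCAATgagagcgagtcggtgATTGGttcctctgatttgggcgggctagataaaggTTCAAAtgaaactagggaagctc
Mki67 (minus strand, chr7:135716380-135716529): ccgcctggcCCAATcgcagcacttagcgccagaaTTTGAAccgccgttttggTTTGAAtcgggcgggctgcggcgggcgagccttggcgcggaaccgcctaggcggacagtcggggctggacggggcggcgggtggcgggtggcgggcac
Ube2c (plus strand, chr2:164769779-164769928): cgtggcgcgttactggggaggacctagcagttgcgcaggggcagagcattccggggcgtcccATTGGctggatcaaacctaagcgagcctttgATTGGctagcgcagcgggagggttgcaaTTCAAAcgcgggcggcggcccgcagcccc
Mcm6 (minus strand, chr1:128359706-128359855): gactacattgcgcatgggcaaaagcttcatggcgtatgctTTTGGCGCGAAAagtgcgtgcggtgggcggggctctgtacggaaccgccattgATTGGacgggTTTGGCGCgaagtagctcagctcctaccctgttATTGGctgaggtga
Pcna (minus strand, chr2:132253181-132253330): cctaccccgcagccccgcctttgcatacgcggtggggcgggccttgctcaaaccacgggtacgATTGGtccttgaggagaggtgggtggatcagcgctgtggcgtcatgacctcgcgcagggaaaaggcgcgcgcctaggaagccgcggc

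A CHR match was present in 17 of the 22 mitotic windows (77.3%), in 1 of the 10 S-phase windows, that of Mcm2, and in 19.4% of the 27025 gene windows searched. A CCAAT box was present in 18 mitotic and 8 S-phase windows, against 37.9% of all windows. E2F-type sites showed the opposite split, with 4 S-phase windows (Mcm3, Mcm5, Mcm6 and Pclaf) and 1 mitotic window (Cdk1) against 2.32% of all. Of the mitotic windows, 12 held a CHR together with at least 2 CCAAT boxes, which was true of 2.43% of all windows and of none of the S-phase windows. A match is a run of letters and not a measured binding site, and overlapping matches, as in Mcm6, were counted separately.

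**Figure D2:**
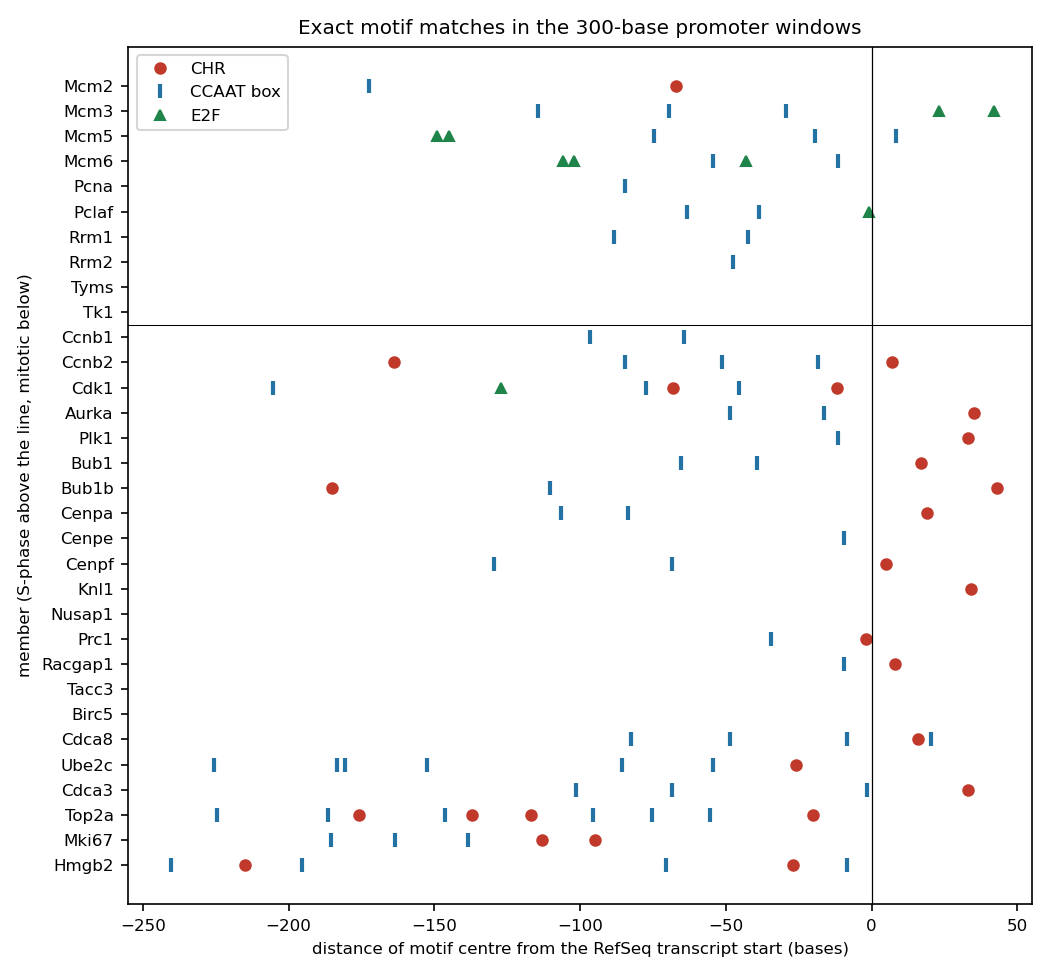
Position of each exact match relative to the RefSeq start, 1 row per member, with S-phase members above the line; dots mark the CHR, bars the CCAAT box and triangles the E2F-type site. CHR matches lie in 17 of 22 mitotic rows and E2F-type sites mainly in the S-phase rows.

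Summed over all barcodes, mitotic transcripts were lower in the Kif13b-/- library and S-phase transcripts were at nearly the same level. The 26 mitotic members together stood at 433 CPM in the WT and 339 CPM in the Kif13b-/- library, a log2 ratio of Kif13b-/- over WT of -0.36 (-0.38 to -0.33). The 10 S-phase members stood at 182 and 179 CPM (-0.02, -0.06 to 0.01). A member counts as higher or lower where the ratio passed 1.5 and both libraries together held at least 20 UMIs. On that rule 0 of 36 members were higher, against 4.39% of all genes, and 4 were lower, against 8.37% of all genes. The 4 were Cenpf (11.1 and 5.86 CPM, log2 ratio -0.92), the kinetochore motor gene Cenpe (5.57 and 3.01 CPM, -0.89), the spindle assembly factor gene Tpx2 (11.2 and 6.80 CPM, -0.72) and Cdca8 (6.97 and 4.63 CPM, -0.59), a subunit of the chromosomal passenger complex. Median log2 ratios were -0.32 over the mitotic members, 0.02 over the S-phase members and -0.05 over all genes.

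Other members differed by less. Top2a, the topoisomerase that untangles chromosomes, stood at 21.8 CPM in the WT and 17.5 CPM in the Kif13b-/- library. Mki67, the proliferation marker that coats mitotic chromosomes, stood at 19.3 and 18.4 CPM. Cdk1, the kinase that starts mitosis, was at 8.62 and 8.72 CPM. Hmgb2, the most abundant member, was at 164 and 123 CPM and supplied 13445 of the 35504 WT mitotic UMIs. Among S-phase members, Pcna was at 97.7 and 95.9 CPM, whereas Tk1 (3.18 and 4.23 CPM), Mcm5 (4.14 and 5.35 CPM) and Mcm2 (3.89 and 4.98 CPM) were above the WT level in the Kif13b-/- library.

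Grouped by role, every mitotic group was below the WT level, while the 3 S-phase groups lay within 0.08 of 0 on the log2 scale. The 4 centromere and kinetochore genes together stood at 46.3 CPM in the WT and 32.6 CPM in the Kif13b-/- library (-0.51, -0.59 to -0.43). The 6 spindle and cytokinesis genes stood at 103 and 82.4 CPM (-0.32), with Prc1, which bundles the central spindle, at 15.8 and 11.1 CPM and Nusap1, a spindle-associated protein, at 10.2 and 6.87 CPM. The 4 passenger complex and ubiquitin genes were at 39.5 and 31.9 CPM (-0.31), and the 3 cyclin genes with Cdk1 at 27.7 and 23.0 CPM (-0.27). The 5 mitotic kinases and checkpoint genes were the least abundant, at 11.5 and 9.72 CPM (-0.24, -0.39 to -0.09), each between 1.37 CPM (Plk1) and 2.82 CPM (Bub1b) in the WT library. The 4 helicase subunit genes, at 37.2 CPM in the WT library, had a log2 ratio of -0.05 (-0.13 to 0.03) and the 4 nucleotide supply genes stood at 35.5 and 37.4 CPM (0.08).

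Cycling barcodes made up 1.89% (1.67 to 2.13%) of WT and 0.635% (0.456 to 0.860%) of Kif13b-/- barcodes. The summed level of the 24 mitotic members was 5208 CPM within WT and 4813 CPM within Kif13b-/- cycling barcodes. Outside them it was 101 and 102 CPM, a log2 ratio of 0.02. The call uses the same 24 members and bounds their level on either side of it, so these levels do not tell fewer cycling cells from less mitotic RNA per cell. Hmgb2, which the call does not use, was at 138 and 104 CPM outside cycling barcodes. Without thinning, the share of barcodes with at least 3 such UMIs went the other way, at 5.48% and 8.71%, as Kif13b-/- barcodes were deeper. Among barcodes of at least 5000 UMIs, thinned shares were 1.95% in the WT library (92 of 4725) and 0.891% in the Kif13b-/- library (35 of 3926).

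**Figure D3:**
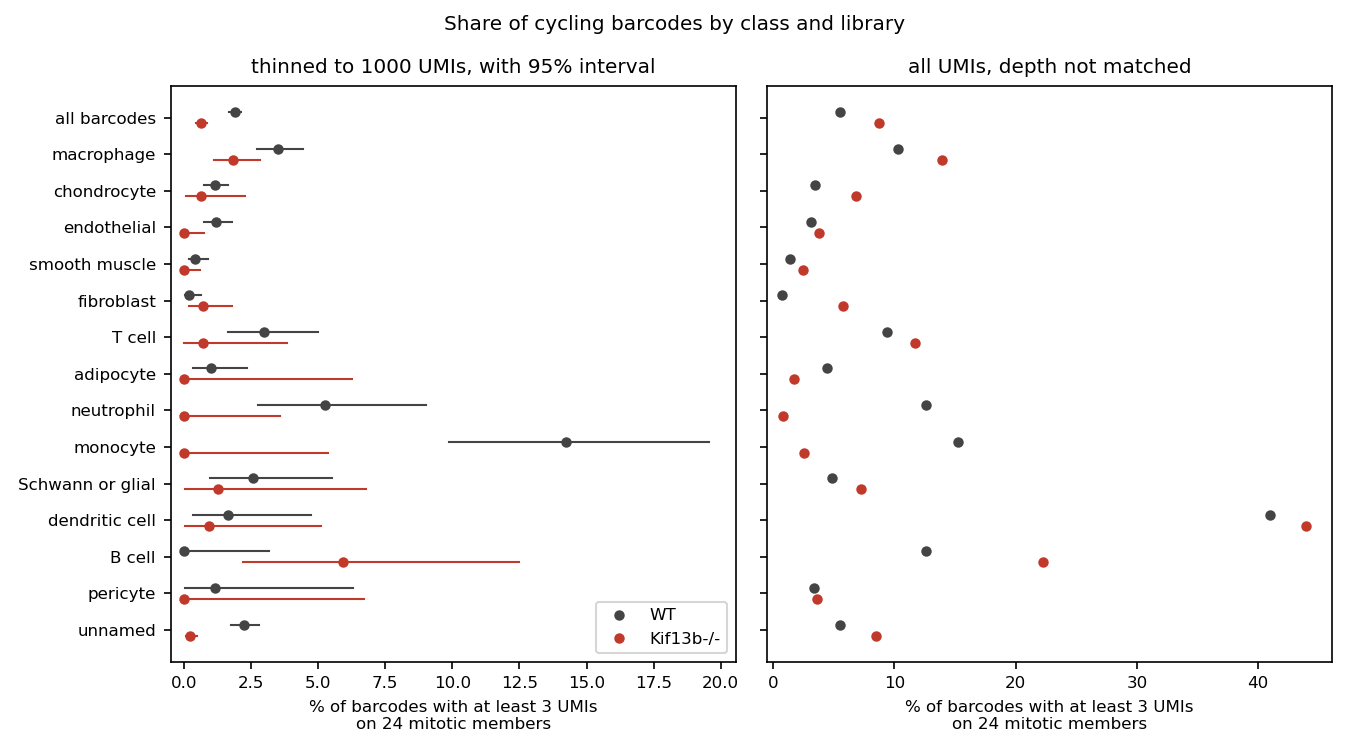
Percent of cycling barcodes by class, in the left panel after thinning every barcode to 1000 UMIs with 95% Clopper-Pearson intervals and in the right panel from all UMIs. Over all barcodes the thinned shares are 1.89% and 0.635%, and the unthinned ones are 5.48% and 8.71%.

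Cycling barcodes of the WT library were often shallow and, in some clusters, alike. Their median depth was 2834 UMIs in the WT library, with 177 of 269 under 5000, and 15077 UMIs in the Kif13b-/- library, with 6 of 41 under 5000. The spread among barcodes was measured as a chi-square per degree of freedom against their common profile, where 1 is counting noise. In WT cluster 3, a chondrocyte-like cluster, the 22 cycling barcodes had a value of 1.15, against 2.87 for other barcodes of the same cluster and nearest depth. The 31 in the monocyte-like cluster 18 had 1.27 against 2.35, and the 12 in the neutrophil-like cluster 24 had 1.52 against 2.79. In the macrophage-like cluster 8 the values were 2.61 and 3.36, and for the 38 in the unnamed cluster 1 they were 1.40 and 1.68, a smaller contrast. In each cluster measured the cycling barcodes had the lower value, also in Kif13b-/- cluster 8 (4.11 against 5.64). Those of WT clusters 3 and 18 came closest to counting noise, and whether several barcodes hold RNA of 1 cell was not tested. Leaving out clusters 1, 3, 18 and 24, a choice made after seeing these values, the shares were 1.43% in the WT and 0.680% in the Kif13b-/- library, and the log2 ratio of the summed mitotic members was -0.32. Cluster 6 was nearly confined to the Kif13b-/- library, with 1289 thinned barcodes against 4, and without it the Kif13b-/- share was 0.774% and the log2 ratio -0.29.

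**Figure D4:**
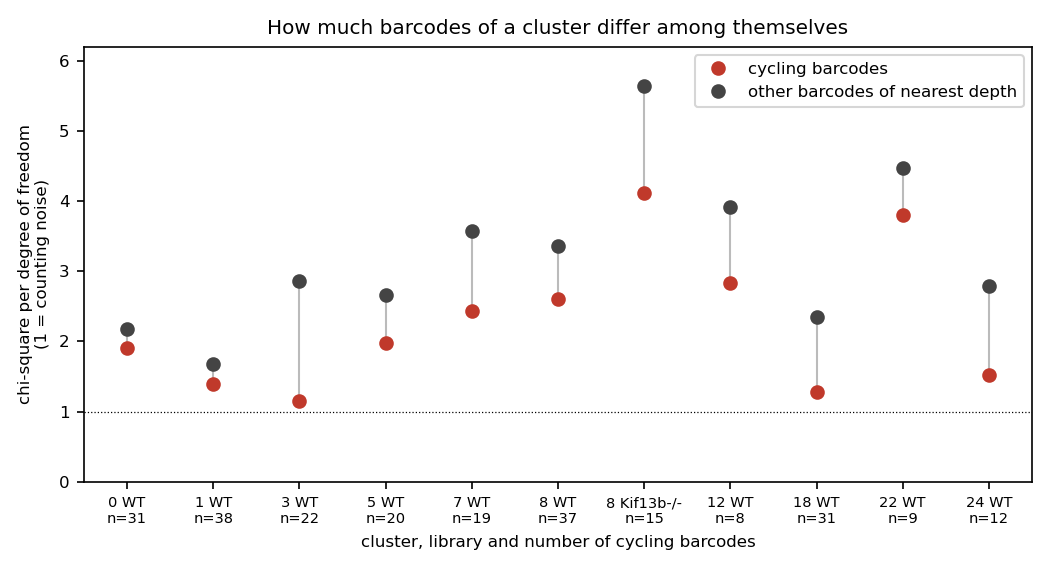
Chi-square per degree of freedom among cycling barcodes (red) and among other barcodes of the same cluster and nearest depth (grey), for clusters with at least 8 cycling barcodes in a library; the dotted line at 1 is counting noise. Cycling barcodes of WT clusters 3 and 18 lie at 1.15 and 1.27.

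Markers of the class also differed in some of these barcodes. Neutrophils are not known to divide in tissue and had been chosen as the class in which any mitotic UMI would be free RNA. In the WT library 12 of 228 neutrophil-like barcodes (5.26%) were cycling, but their neutrophil markers stood at 2167 CPM, against 25134 CPM in the rest of the class. The fibroblast proteoglycan gene Dcn was at 4777 CPM in the 12 and at 2624 CPM in the rest. By detection the 12 held a median of 2 of the 8 markers, against 3 in the rest. In the Kif13b-/- library 0 of 101 neutrophil-like barcodes were cycling, which allows a share of up to 2.97%. The class therefore did not serve as a background for the WT library. Monocyte-like barcodes, all in cluster 18, were cycling in 31 of 218 WT (14.2%) and 0 of 67 Kif13b-/- cases, the latter allowing up to 4.48%. Monocyte markers set this class apart only weakly, at 7544 CPM inside and 5690 CPM outside it in the WT library. The 31 held a median of 1 of the 8 markers, against 2 in the rest of the WT class, at summed levels of 9230 and 7549 CPM.

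Macrophage-like barcodes held the most cycling barcodes of any named class in both libraries, and most members were close between the libraries. The 24 mitotic members summed to 443 CPM in the WT and 428 CPM in the Kif13b-/- library (-0.05, -0.11 to 0.01), and all 26 to 866 and 776 CPM (-0.16, -0.20 to -0.11). S-phase members summed to 311 and 282 CPM (-0.14). Of 36 members 1 was higher, Tk1 (4.70 and 7.41 CPM, 0.65), against 5.14% of all genes, and 1 lower, Cdca8 (16.4 and 10.3 CPM, -0.67), against 7.89%. The sign for Tk1 turned with classes taken from marker scores (-0.11), with each barcode weighing the same (-0.03) and with every barcode thinned before summing (-1.59). Top2a was at 51.9 and 48.9 CPM, Mki67 at 65.4 and 61.2 CPM, Birc5, the passenger complex subunit survivin, at 30.6 and 29.8 CPM and Ube2c at 27.7 and 31.1 CPM. None of these 4 differed beyond counting error.

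The share of cycling macrophage-like barcodes was nevertheless 3.51% (2.74 to 4.43%, 68 of 1936) in the WT and 1.84% (1.13 to 2.83%, 20 of 1087) in the Kif13b-/- library. The cycling barcodes had medians of 6100 and 22753 UMIs, so fewer Kif13b-/- barcodes held as large a part of the summed UMIs, 58.6% against 57.1%. In cluster 8, the deepest macrophage-like cluster, the shares were 5.29% (3.75 to 7.21%) and 3.46% (1.95 to 5.65%), whose intervals overlap. The summed log2 ratio was further below 0 with each barcode weighing the same (-0.39) and with classes from marker scores (-0.64), where 17 members were lower. No share over all genes was recorded for that setting.

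Endothelial-like barcodes had lower summed mitotic levels in the Kif13b-/- library. The 26 mitotic members summed to 425 CPM in the WT and 216 CPM in the Kif13b-/- library (-0.97, -1.09 to -0.86), and the S-phase members to 237 and 189 CPM (-0.32, -0.45 to -0.19). Of 31 measured members 0 were higher, against 6.49% of all genes, and 21 were lower, against 8.24%. These were 19 of 22 measured mitotic and 2 of 9 measured S-phase members, Pclaf and Mcm5. The median was -1.40 over the mitotic members and -0.02 over all genes. With every barcode thinned before summing, 8 members were lower and 1 higher. The clusters of the class were unevenly split between the libraries, with 288 WT and 19 Kif13b-/- barcodes in cluster 21 and 0 and 39 in cluster 35.

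By role, all 4 measured passenger complex and ubiquitin genes were lower, all 6 spindle and cytokinesis genes and all 4 centromere and kinetochore genes. Birc5 held 56 UMIs in the WT (8.65 CPM) and 6 in the Kif13b-/- library (1.65 CPM), a log2 ratio of -2.32 (-3.90 to -1.18). Cenpf was at 9.42 CPM (61 UMIs) and 1.65 CPM (6 UMIs), a log2 ratio of -2.45. The cyclin gene Ccnb2 was at 11.9 and 3.84 CPM (-1.60, -2.57 to -0.80). Stmn1 was at 59.9 and 24.2 CPM (-1.31) and Hmgb2 at 192 and 118 CPM (-0.70). Pclaf was at 14.7 and 3.02 CPM (-2.24, -3.33 to -1.38). In contrast Pcna was at 126 and 105 CPM (-0.26), Tyms, the enzyme that makes thymidylate, at 14.8 and 15.1 CPM and Cdk1 at 6.80 and 6.32 CPM. Mcm5 was called at -0.74, but its interval (-1.70 to 0.11) held 0 and its sign turned under 3 of the alternatives run, up to 0.27.

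Cycling endothelial-like barcodes numbered 22 of 1839 (1.20%, 0.751 to 1.81%) in the WT library, 16 of them under 5000 UMIs, and 0 of 498 in the Kif13b-/- library, which allows up to 0.602%. Of the 22, 20 were in cluster 5, which held 705 of the 1120 WT UMIs of the 24 members and 97 of the 270 Kif13b-/- ones. The WT cycling barcodes kept endothelial markers, at 3006 CPM against 3849 CPM in the other barcodes of the class. The count of 0 in the Kif13b-/- library holds for thinned barcodes. Without thinning, 70 of 2260 WT (3.097%) and 20 of 527 Kif13b-/- barcodes (3.795%) held at least 3 such UMIs. Median depths of the class were 1979 and 4251 UMIs. The 5 richest barcodes held 25.2% of the WT and 29.3% of the Kif13b-/- UMIs of the 24 members. The richest alone held 110 of the 1120 and 46 of the 270. Outside cycling barcodes the 24 mitotic members were also lower, at 116 and 74.6 CPM (-0.64). In bulk sums such as these, fewer dividing cells and less mitotic RNA per cell cannot be told apart.

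T cell-like barcodes showed the same direction from fewer barcodes, 595 and 154. The mitotic members summed to 1391 CPM in the WT and 681 CPM in the Kif13b-/- library (-1.03, -1.16 to -0.91). S-phase members summed to 507 and 379 CPM (-0.42, -0.60 to -0.24). Of 27 measured members 0 were higher, against 9.5% of all genes, and 18 were lower, against 14.8%. Stmn1 was at 200.3 CPM (347 UMIs) and 60.5 CPM (59 UMIs), a log2 ratio of -1.72 (-2.15 to -1.33). Top2a was at 95.8 and 34.9 CPM (-1.45, -2.04 to -0.92) and Birc5 at 23.1 and 4.10 CPM (-2.39). Knl1, a scaffold of the kinetochore, was at 19.6 and 4.10 CPM (-2.16), and Pclaf at 80.8 and 32.8 CPM (-1.29). Pcna, at 178 and 174 CPM, and Cenpa, at 83.7 and 60.5 CPM, did not pass the ratio.

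Few barcodes carried these T cell-like levels. The 5 richest barcodes held 33.2% of the WT and 47.8% of the Kif13b-/- UMIs of the 24 mitotic members. Cluster 17 had 395 WT and 60 Kif13b-/- barcodes, and cluster 22 had 200 and 94. Cluster 22 held 632 of the 793 WT and 175 of the 209 Kif13b-/- UMIs of the 24 members. Cycling barcodes numbered 14 of 467 (3.00%, 1.65 to 4.98%) and 1 of 143 (0.699%, 0.0177 to 3.83%), so their intervals overlap. Without thinning, 56 of 595 WT (9.41%) and 18 of 154 Kif13b-/- barcodes (11.7%) held at least 3 such UMIs. Median depths of the class were 2084 and 4972.5 UMIs. T cell markers stood at 4265 CPM in the WT cycling barcodes and at 2062 CPM in the others. The 1 Kif13b-/- cycling barcode held 4 marker UMIs (1188 CPM), against 2082 CPM in the other Kif13b-/- barcodes of the class. Its Dcn level was 5645 CPM, against 2644 CPM in those others. With every barcode thinned before summing, 4 members were lower, 0 higher and the summed log2 ratio was -0.46, with Top2a at 0.20. The number measured and the share over all genes were not recorded for that setting.

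Fibroblast-like barcodes went the other way for mitotic genes, with little difference in S-phase genes. The 26 mitotic members summed to 180 CPM in the WT and 302 CPM in the Kif13b-/- library (0.75, 0.61 to 0.88). Without Hmgb2 and Stmn1 they summed to 56.5 and 161 CPM (1.51, 1.29 to 1.73). S-phase members summed to 157 and 152 CPM (-0.04, -0.20 to 0.12). Of 26 measured members 15 were higher, against 7.07% of all genes, and 1 was lower, Mcm6, against 8.89%. The higher ones were 13 of 17 measured mitotic members, with Pclaf and Tk1 among the S-phase members, and all 15 passed a ratio of 2 as well. None of the 5 mitotic kinase and checkpoint genes reached 20 UMIs there.

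Counts behind the fibroblast-like ratios were low. Birc5 held 7 WT and 55 Kif13b-/- UMIs (1.68 and 13.8 CPM), a log2 ratio of 2.95 (1.90 to 4.42). Cdca3, a cell division regulator, held 3 and 28 UMIs (3.08, 1.59 to 5.65). Cdk1 held 5 and 33 UMIs (2.67, 1.42 to 4.50) and Top2a 13 and 53 (2.05, 1.20 to 3.09). Stmn1 was at 18.5 and 39.7 CPM (1.10, 0.70 to 1.51) and Cenpa at 7.21 and 17.6 CPM (1.27, 0.65 to 1.96). Hmgb2 was at 105 and 102 CPM, Pcna at 98.5 and 87.4 CPM and Mcm6 at 13.5 and 7.54 CPM (-0.83, -1.53 to -0.17).

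These higher levels also rested on few barcodes. The 5 richest Kif13b-/- barcodes held 52.0% of the UMIs of the 24 members, and the richest alone held 16.4%. Cycling barcodes numbered 2 of 1119 (0.179%, 0.0217 to 0.644%) in the WT and 4 of 565 (0.708%, 0.193 to 1.80%) in the Kif13b-/- library, with overlapping intervals. Fibroblast markers in the 4 stood at 18487 CPM, against 23696 CPM in the rest of the class. Outside cycling barcodes the 24 members were at 48.8 and 108 CPM (1.15). With each barcode weighing the same the summed log2 ratio of the 26 members was 0.33. With every barcode thinned before summing it was 0.44, with 3 members past the ratio (1 higher, 2 lower). With classes from marker scores it was 0.22, with 8 members past the ratio (6 higher, 2 lower). The number measured and the share over all genes were not recorded for these settings.

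**Figure D5:**
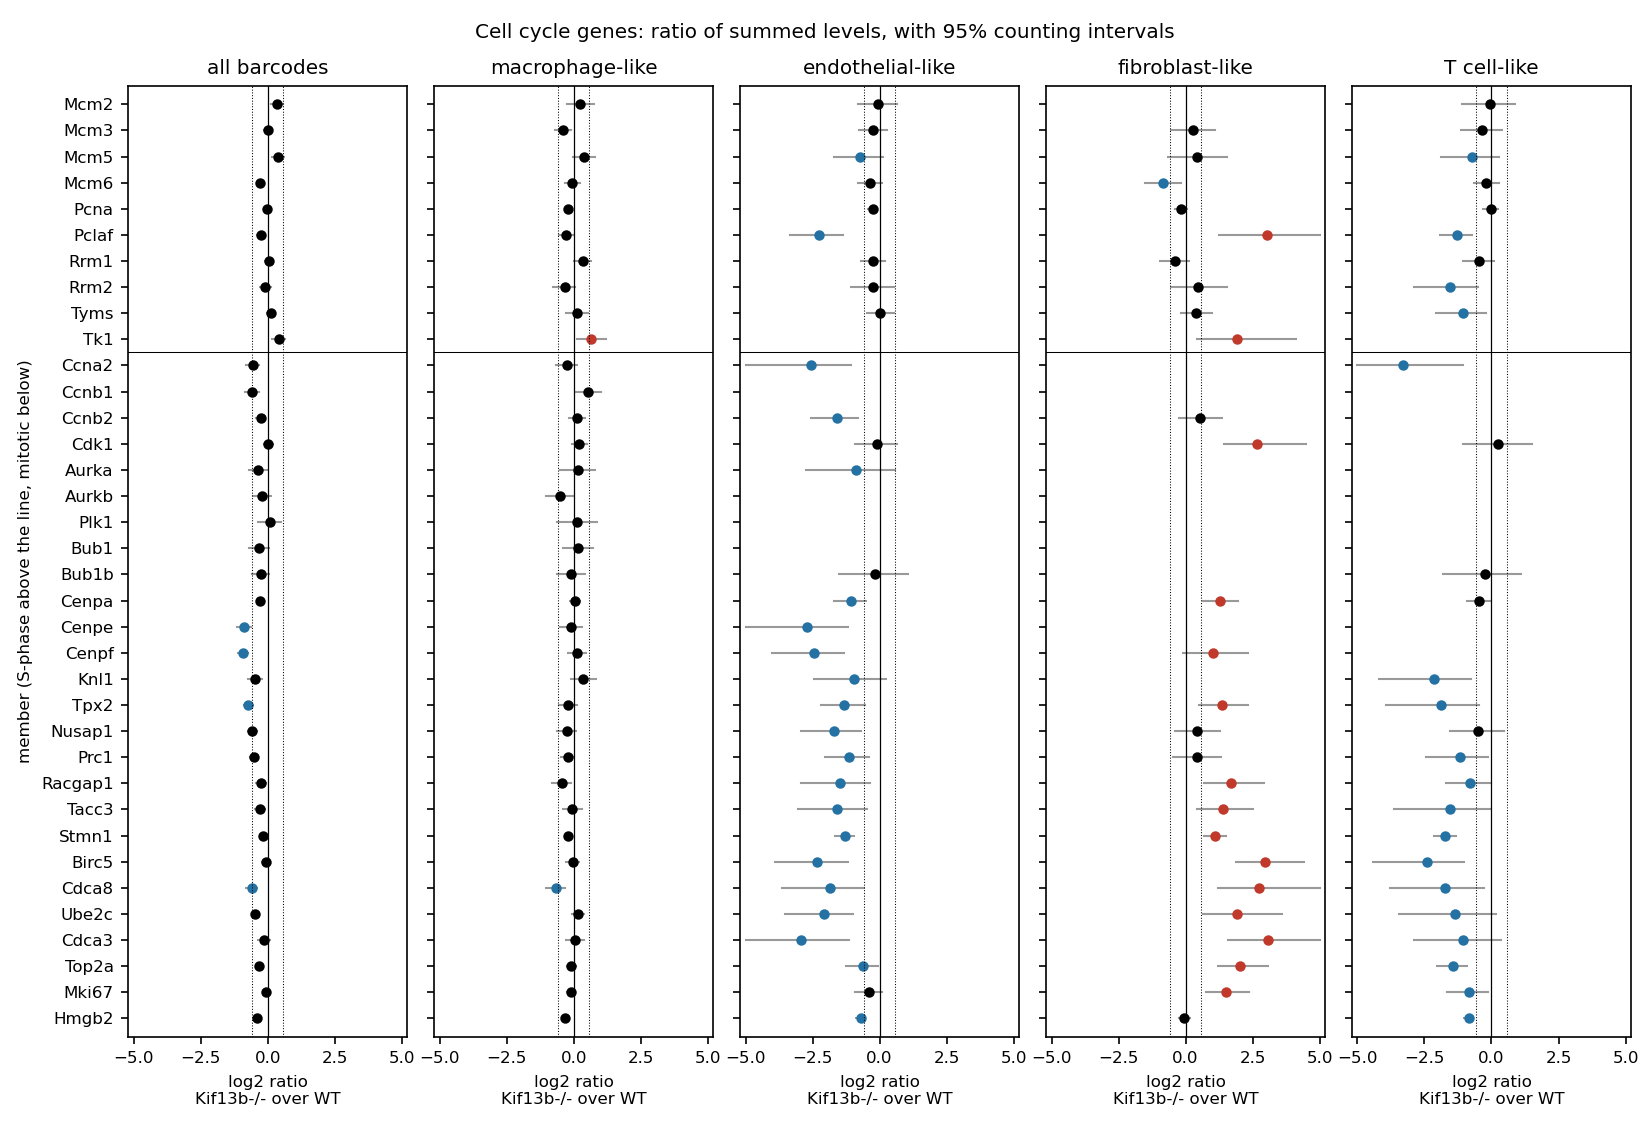
Log2 ratio of the summed level of each member, Kif13b-/- over WT, over all barcodes and in 4 classes, with 95% counting intervals drawn to at most 5 either way; dotted lines mark a ratio of 1.5, red and blue points lie beyond it and members under 20 UMIs are not drawn. Most mitotic members lie left of 0 in endothelial-like and T cell-like and right of 0 in fibroblast-like barcodes.

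Other classes varied as well, among them the chondrocyte-like one, with 2656 WT and 349 Kif13b-/- barcodes. In chondrocyte-like barcodes the mitotic members summed to 224 and 295 CPM (0.39, 0.29 to 0.50), and 17 of 32 measured members were higher, against 9.13% of all genes, with 1 lower, against 11.1%. The sign of the summed ratio turned with cell cycle genes used for clustering (-0.20), with each barcode weighing the same (-0.48) and with every barcode thinned before summing (-0.63). There 1 Kif13b-/- barcode held 39.0% of the UMIs of the 24 members. Cycling chondrocyte-like barcodes numbered 27 of 2374 and 2 of 313. B cell-like barcodes were the only named class besides fibroblast-like with a higher cycling share in the Kif13b-/- library, 6 of 101 (5.94%, 2.21 to 12.5%) against 0 of 114, which allows up to 2.63%. The S-phase members there stood at 295 and 503 CPM (0.77, 0.47 to 1.08), but the B cell markers of the 6 cycling barcodes were at 1136 CPM, against 14212 CPM in the rest of the class. By detection the 6 were not lower, with a median of 5 of the 8 markers against 3 in the rest, at median depths of 12838 and 4678 UMIs. The part of those barcodes in the B cell-like result was not tested. There 5 of 16 measured members were higher, against 18% of all genes, and 2 lower, against 22.6%. Smooth muscle-like barcodes had few, 7 of 1641 and 0 of 635, the latter allowing up to 0.472%. There 2 of 21 measured members were higher, against 5.98%, and 3 lower, against 4.59%.

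The remaining classes held fewer measured members or had no name. Monocyte-like barcodes had 11 of 13 measured members lower, against 21.5% of all genes, and 0 higher, against 10.7%, and neutrophil-like barcodes 7 of 9 lower, against 22.1%, and 0 higher, against 11.7%. As given above, the WT cycling barcodes of the monocyte-like class were close to counting noise. Those of the neutrophil-like cluster 24 were less so (1.52) and were low in the class markers. The part of this in the counts was not tested. In dendritic cell-like barcodes 9 of 25 were lower, against 7.97%, and 2 higher, against 13.4%. Barcodes that stayed unnamed had 22 of 36 lower, against 10.8%, and 0 higher, against 9.53%, with cycling shares of 2.22% (71 of 3197) and 0.227% (6 of 2645). In Schwann or glial-like barcodes 5 of 10 were lower, against 18.6%, and 0 higher, against 11.6%. Adipocyte-like barcodes had 3 of 7 lower, against 19.7%, and 0 higher, against 9.3%. Pericyte-like barcodes had 2 of 3 lower, against 14.7%, and 0 higher, against 12.1%.

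The balance of S-phase to mitotic transcripts within cycling barcodes also varied between classes, often from few barcodes. Per UMI on the 24 mitotic members, WT cycling barcodes held 0.852 S-phase UMIs in the T cell-like class (14 barcodes), 0.269 in the endothelial-like class (22) and 0.212 in the macrophage-like class (68). Other named WT classes with cycling barcodes ranged from 0 (fibroblast-like, 2 barcodes) to 1.26 (pericyte-like, 1 barcode). Kif13b-/- cycling barcodes held 0.238 in the macrophage-like class (20 barcodes) and 1.26 in the B cell-like class (6). These ratios carry no interval, and the cycling call uses their denominator.

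Genes of the same pathways outside the list differed in the same directions in part. They were counted in the same barcodes as the members, so a shared direction is a description and not independent support. Among 43 other replication genes, 0 were higher and 0 lower over all barcodes, against 4.39% and 8.37% of all genes. Of 35 measured in T cell-like barcodes 15 were lower, against 14.8% of all genes, and 0 higher. Dut, which clears dUTP, was at 109 and 70.7 CPM there, and the maintenance methyltransferase gene Dnmt1 at 55.4 and 30.8 CPM. Among 57 other mitotic genes, 9 (15.8%) were lower, against 8.37% of all genes, and 0 higher over all barcodes, with Hmmr, a spindle protein, at 5.99 and 2.92 CPM (-1.03) and the spindle motor gene Kif11 at 6.49 and 4.28 CPM (-0.60). In endothelial-like barcodes 16 of 42 measured were lower, against 8.24% of all genes, and 1 higher. The lower ones included the chromokinesin gene Kif4 (53 and 3 UMIs, -3.17, -5.64 to -1.69) and the anaphase activator gene Cdc20 (7.11 and 2.47 CPM). In fibroblast-like barcodes 12 of 26 measured were higher, against 7.07% of all genes, and 0 lower, with the condensin subunit gene Smc2 at 9.13 and 17.3 CPM (0.92).

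Of 44 genes of cycle entry and its brakes, 1 was higher over all barcodes (Mybl2, a transcription factor of proliferating cells, 0.67) and 1 lower, Cdkn1a, the p53-induced inhibitor p21. Either share (2.27%) lay below that of all genes, 4.39% higher and 8.37% lower. Cdkn1a stood at 409 and 268 CPM (-0.61, -0.64 to -0.58) over all barcodes and at 312 and 199 CPM (-0.65) in fibroblast-like barcodes. In T cell-like barcodes it was at 195 and 258 CPM (0.41, 0.17 to 0.65). Ccnd1, the cyclin of early G1, was at 37.4 and 38.0 CPM over all barcodes and at 85.3 and 90.1 CPM in endothelial-like barcodes.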

How the data were processed

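UMI counts per gene and barcode were used as deposited by the authors in 2 matrices, 1 per library, made with Cell Ranger 8.0.1 per the file headers on mm10 per the submitters' processing notes. The gene annotation version was not given there. Coordinates of genes come from GENCODE M21 on that build, which held 94.9% of the features, and promoters from RefSeq.

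Filters of 500 UMIs, 300 genes and a mitochondrial share of up to 20% left 19832 and 7315 barcodes. Putative doublets were removed by rank of the Scrublet score at 0.8% per 1000 barcodes (3146 and 428), because the caller's own threshold marked 4 and 0. Barcodes were clustered with scanpy 1.11.5 and leidenalg 0.10.2 (2000 variable genes, 30 components, 15 neighbours, resolution 1). Clusters were named from marker lists, with a naming rule revised after the clusters were seen, so a class may differ from the study's own. UMIs were summed per class and library. Log2 ratios used a prior count of 0.5 and exact conditional binomial intervals, levels Poisson intervals and shares Clopper-Pearson intervals, all at 95%. A share of 0 was given the limit of 3 counts.

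The members and gene lists were chosen with earlier results of these data known. All 36 members could be named, chosen per class by abundance and by the highest and lowest ratios among those with at least 50 UMIs; others outside that rule were chosen after their values were seen. The scripts were tested on simulated data.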

Additional observations from a re-analysis of the deposited data

Results flagged for a closer look

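The summed mitotic members lay on opposite sides of 0 between classes of the same 2 libraries. The log2 ratio of Kif13b-/- over WT was 0.75 in fibroblast-like barcodes, -0.97 in endothelial-like barcodes and -1.03 in T cell-like barcodes. The directions in these classes were known from earlier results of these data when the genes were chosen, so this is a description and not an independent finding. Chondrocyte-like and B cell-like barcodes were also above 0, though not under every alternative, and were not flagged. The difference between the classes was not tested, since each class has 1 library per genotype. The 5 richest fibroblast-like Kif13b-/- barcodes held 52.0% of the UMIs of the 24 mitotic members.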

How the results depend on the processing

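No paired analysis was possible because each genotype has 1 library. The summed mitotic log2 ratio kept its sign under each alternative run over all barcodes and in the macrophage-like, endothelial-like, T cell-like and fibroblast-like classes; the cause of the shifts below was not tested. Choices added after seeing the data are the omission of clusters 1, 3, 18 and 24, of cluster 6, and of Hmgb2 and Stmn1.

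Over all barcodes it was -0.22 at 10% mitochondrial UMIs, -0.29 without mitochondrial and ribosomal protein genes, -0.50 with each barcode weighing the same, -0.44 with barcodes thinned, -0.31 centred on the median gene, -0.41 without the richest barcode, -0.32 without clusters 1, 3, 18 and 24 and -0.29 without cluster 6. Macrophage-like values were -0.43 at 10% mitochondrial UMIs, -0.64 with marker scores, -0.26 at resolution 2, -0.39 with equal weights, -0.33 thinned, -0.21 without the richest barcode and -0.051 without Hmgb2 and Stmn1. Endothelial-like values were -1.12 and -1.21 at 2000 and 5000 UMIs or more, -0.74 with cell cycle genes in the clustering, -0.83 at resolution 2 and -1.22 without Hmgb2 and Stmn1. Fibroblast-like values were 0.59 with doublets kept, 1.07 at 5000 UMIs or more, 0.22 with marker scores, 0.60 at resolution 2, 0.33 with equal weights, 0.44 thinned and 1.51 without Hmgb2 and Stmn1. T cell-like values were -0.87 with doublets kept, -0.72 at 10% mitochondrial UMIs, -1.70 at 5000 UMIs or more, -1.31 with marker scores, -1.26 at resolution 2, -0.84 with equal weights and -0.46 thinned.

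The summed S-phase ratio over all barcodes, -0.02 as reported, rose above 0 under 5 of 14 settings. It was 0.026 at 10% mitochondrial UMIs, 0.026 at 5000 UMIs or more and 0.043 without mitochondrial and ribosomal protein genes. Centred it was 0.028, and without cluster 6 it was 0.0029. It stayed below 0 with equal weights (-0.14) and thinned (-0.15). With marker scores it turned to 0.029 in neutrophil-like, 0.10 in pericyte-like and 0.15 in adipocyte-like barcodes. It also changed sign in fibroblast-like barcodes under 3 of 14 settings (up to 0.069), smooth muscle-like under 2 (down to -0.087), and under 1 each in chondrocyte-like (-0.014), dendritic cell-like (0.024) and Schwann or glial-like barcodes (0.27), while adipocyte-like barcodes turned under 2 in all. The summed mitotic ratio changed sign under 3 of 15 settings in chondrocyte-like (down to -0.63), 2 in B cell-like (down to -0.25) and 1 in adipocyte-like barcodes (0.33). Single members that turned were Tk1 in macrophage-like barcodes (-0.11 with marker scores, -0.032 with equal weights, -1.59 thinned), Mcm5 in endothelial-like barcodes (0.19 with cell cycle genes in the clustering, 0.27 at resolution 2, 0.27 thinned) and Top2a in T cell-like barcodes (0.20 thinned).

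For the alternative counts of members below, the number measured and the share over all genes were not recorded. Where barcodes were thinned, the UMI minimum applied to the thinned counts. Members past the ratio over all barcodes, 4 as reported, numbered 2 at 10% mitochondrial UMIs, 11 with equal weights, 12 thinned, 8 without the richest barcode and 0 at a ratio of 2. Macrophage-like counts, 2 as reported, were 1 with doublets kept, 8 at 10% mitochondrial UMIs, 1 with cell cycle genes in the clustering, 17 with marker scores, 6 with equal weights, 7 thinned and 0 at a ratio of 2. Endothelial-like counts were 9 thinned (8 lower and 1 higher) and 13 at 50 UMIs, fibroblast-like 8 with marker scores, 10 at resolution 2, 3 thinned and 7 at 50 UMIs, and T cell-like 11 at 10% mitochondrial UMIs, 9 at resolution 2, 4 thinned and 8 at 50 UMIs. Cycling shares of WT and Kif13b-/- barcodes were 3.20% and 1.70% with 2 UMIs needed, and 0.780% and 0.248% with 5. The WT share was 1.43% without clusters 1, 3, 18 and 24, and the Kif13b-/- share 0.957% at 10% mitochondrial UMIs and 0.891% at 5000 UMIs or more. Monocyte-like barcodes gave no value with doublets kept, at 10% mitochondrial UMIs, with cell cycle genes in the clustering or without those clusters, nor pericyte-like ones at resolution 2.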
